A study of Macaca mulatta with 11 samples.

Results

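Chromosome 19 held 191818 of the 3115109 CpG positions listed in a capture bisulfite sequencing study of prefrontal cortex area 46 from 11 rhesus macaques (Macaca mulatta). Its members are every listed position whose chromosome is given as 19, and the other 2923291 positions, on chromosomes 1 to 18 and 20, served as the comparison. The rule itself uses no methylation level. All 11 animals had not yet drunk alcohol when the tissue was taken. They came from 2 labelled cohorts: cohort 10 with 2 animals aged 5.02 and 5.08, and cohort 14 with 9 animals aged 5.18 to 5.44. Each label also carries an ethanol value later recorded over 6 months, from 1.69 to 4.31, here the intake value. No unit for age or intake, no sex, and no group that stayed without ethanol appear in the labels used here. The tissue was measured in bulk, so a level between 0% and 100% does not tell which cell types carry the methyl groups, and with no expression measured the tissue label was not checked against marker genes.

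DNA methylation at CpG sites is copied from cell to cell, and most isolated CpG sites in mammalian tissue are methylated. Stretches rich in CpG sites, known as CpG islands, often lie at promoters and usually stay unmethylated, while CpG-rich stretches inside genes are often methylated. Chromosome 19 of macaques corresponds to human chromosome 19, which is known for its gene density, its high GC content and its clusters of zinc finger genes of the KRAB family, whose proteins bind DNA through tandem C2H2 fingers and silence transposable elements.

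In the authors' tables each library had a methylated and a total read count per position, and the level of a position is the methylated share in percent. Library totals ran from 479979855 to 934657900 counts. Chromosome 19 was read at a mean of 130.5 to 259.2 reads per position and library, against 155.6 to 302.7 elsewhere. In 4 libraries, animals 3, 6, 7 and 8 of cohort 14, an unmethylated count of 1, the lowest in the tables, was found at 6.32% to 7.19% of positions, against 3.38% to 4.70% in the other 7. The main results over animals are therefore also given without these 4. Coordinates are those of the authors' tables, whose genome build is not given in the sources used here.

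Listed positions were denser on chromosome 19 than on any other autosome. There were 3292 per Mb between its first and last listed position, 2.96 times the 1112 per Mb of the others, where single chromosomes ran from 606.4 to 2299 (chromosome 16). Counted per bin of 10 kb that held any listed position, the ratio was 2.07. Local density was counted as the listed positions within 250 bp on either side, the position itself included. On chromosome 19, 62.1% of positions reached 20 or more, against 43.4% to 59.6% on the other autosomes. Positions with 1 to 4 made up 3.70% of chromosome 19 and 10.4% of the rest. Probes of the capture kit were designed on the human genome, so these densities describe what was caught and listed, not all CpG sites of the macaque chromosome.

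The overall level of chromosome 19 was lower than that of the other autosomes in each of the 11 animals. It ran from 41.8% through a median of 42.2% to 42.5%, and that of the others from 43.9% through 44.3% to 44.6%, so the ranges did not overlap. The difference was -2.09 ± 0.182 percentage points (SD, n = 11), with an exact two-sided permutation p of 0.000977, the smallest that swapping the labels within 11 animals can give. That test asks whether the differences within animals centre on 0, over the same positions in every animal. It does not tell how unusual the chromosome is, for which the order of the 20 autosomes is given: at 42.2% chromosome 19 lay well inside the range of the others, 36.9% to 49.4%. Chromosome 16, next in density, had 42.2% as well, and its difference from chromosome 19 was -0.0794 ± 0.182 points (exact permutation p = 0.179, adjusted over 9 comparisons 0.179). Without the 4 libraries named above the difference from the other autosomes was -2.07 ± 0.0766 points (SD, n = 7; exact permutation p = 0.0156). Summing reads over each set before taking the level gave a difference of -1.29 points in place of -2.09.

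Split by local density, the difference changed sign. Where listed positions were sparse, chromosome 19 was less methylated than the rest, and where they were dense it was more methylated. With 1 to 4 positions within 250 bp its level was 72.6% ± 0.571 (SD, n = 11) against 76.0% ± 0.616. With 5 to 9 it was 66.0% ± 0.297 against 70.3% ± 0.445, and with 10 to 19 it was 53.9% ± 0.190 against 56.9% ± 0.223. With 20 to 39 it was 34.3% ± 0.249 against 24.9% ± 0.263. With 40 or more it was 26.2% ± 0.358 against 12.3% ± 0.375, a difference of 13.9 points. Chromosome 19 was lower in 11 of 11 animals in each of the 3 sparser classes and higher in 11 of 11 in both dense classes (exact permutation p = 0.000977 in each of the 5, adjusted 0.000977).

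**Figure D1:**
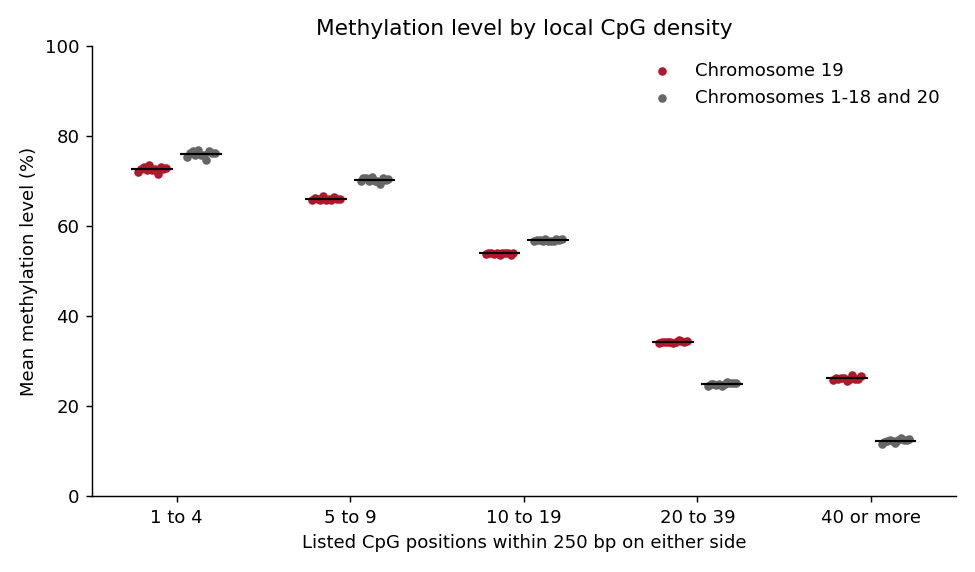
Mean methylation level in percent (vertical axis) in 5 classes of local density (horizontal axis), 1 point per animal for chromosome 19 (red) and for chromosomes 1 to 18 and 20 (grey), with a line at the mean of 11 animals. The red points lie below the grey ones in the 3 sparser classes and above them in the classes of 20 to 39 and of 40 or more, where the means are 26.2% and 12.3%.

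Chromosome 19 was at the edge of the 20 autosomes at both ends of this scale. Its level at 40 or more positions was the highest, the others running from 8.38% to 16.6%, and its level at 1 to 4 was the lowest, the others running from 73.1% to 77.2%. In the densest class, 68.0% of its positions had a mean level under 20%, against 86.9% elsewhere, and 16.6% lay over 80%, against 5.87%. The depth in that class was 166.6 reads per position on chromosome 19 and 184.9 elsewhere. In the sparsest class it was 115.6 and 181.7, and the part of depth in the difference there was not tested. A minimum of 50 reads in every animal kept the directions of the difference over all positions and of the equal-density difference. It was not applied to single classes, so it does not bear on the sparsest one. Positions 1 bp apart, as the strands of a single CpG site would be, each count in the local density. Chromosome 19 held 10.9% of such pairs and 6.16% of all positions. They were not merged for single classes, so their part in the densest class was not tested. With them merged, the equal-density difference was 3.23 points.

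When the 5 classes of chromosome 19 were weighted by the shares they have on the other autosomes, its level became 47.5% ± 0.198 (SD, n = 11) against 44.3% ± 0.243. The difference of 3.26 ± 0.121 points was above 0 in 11 of 11 animals (exact permutation p = 0.000977), and was 3.28 ± 0.0584 points over the 7 animals without the 4 libraries (exact permutation p = 0.0156). By the same measure chromosome 20 lay 5.22 points and chromosome 3 4.404 points above the rest of the autosomes, so chromosome 19 was the third of the 20. Against single chromosomes next in density, weighted to each, it was 3.60 ± 0.149 points above chromosome 16 and 0.868 ± 0.118 points above chromosome 10, and its difference from chromosome 20 was -1.88 ± 0.380 points, at 45.1% against 47.01% (exact permutation p = 0.000977, adjusted 0.0011 for each of the 3).

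Islands were taken as runs of positions that each had at least 20 listed positions within 250 bp, with at least 20 positions over at least 200 bp. Chromosome 19 held 2203 of them, or 11.5 per 1000 positions, more than any other autosome (7.09 to 9.41). An island was called methylated at a mean level of 50% or more. On chromosome 19, 32.9% ± 0.223 (SD, n = 11 animals) were methylated, against 20.9% ± 0.0980 of 23161 islands elsewhere. By mean level over the animals, 497 of the 2203 lay at 80% or more, 419 between 20% and 80%, and 1287 under 20%. In every animal 672 were methylated, in none 1426, and 105 in some and not in others.

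The excess of methylated islands was present at equal density. Among islands with a mean density of 20 to 29, 41.3% ± 0.274 were methylated on chromosome 19 and 34.1% ± 0.129 elsewhere. At 30 to 39 the shares were 27.7% ± 0.342 and 10.96% ± 0.0764, and at 40 to 49 they were 19.4% ± 0.187 and 8.16% ± 0.159. At 50 or more, where chromosome 19 had 82 islands, they were 24.8% ± 1.47 and 11.5% ± 0.253. In each class the share on chromosome 19 was higher in 11 of 11 animals (exact permutation p = 0.000977, adjusted over the 4 classes 0.000977). Weighted to equal density, the share ran from 32.2% through a median of 32.5% to 32.9% on chromosome 19 and from 20.8% through 20.95% to 21.1% on the others. The difference was 11.6 ± 0.184 points (exact permutation p = 0.000977), and 11.6 ± 0.170 points over the 7 animals without the 4 libraries named above (exact permutation p = 0.0156). With a methylated island defined at 80% in place of 50% the difference was 7.47 points, also present in every animal.

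In the order of the autosomes by this share, chromosome 19 came first at 32.5%, chromosome 20 followed at 30.1% and chromosome 3 at 26.9%, and chromosome 2 was the lowest at 13.7%. Weighted to the density of chromosome 20 alone, chromosome 19 had 33.1% ± 0.221 and chromosome 20 31.4% ± 0.267, a difference of 1.69 ± 0.194 points found in 11 of 11 animals (exact permutation p = 0.000977, adjusted 0.0011). Against chromosome 16 the difference was 11.4 ± 0.193 points and against chromosome 10 it was 8.19 ± 0.312 points, with the same p-values.

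**Figure D2:**
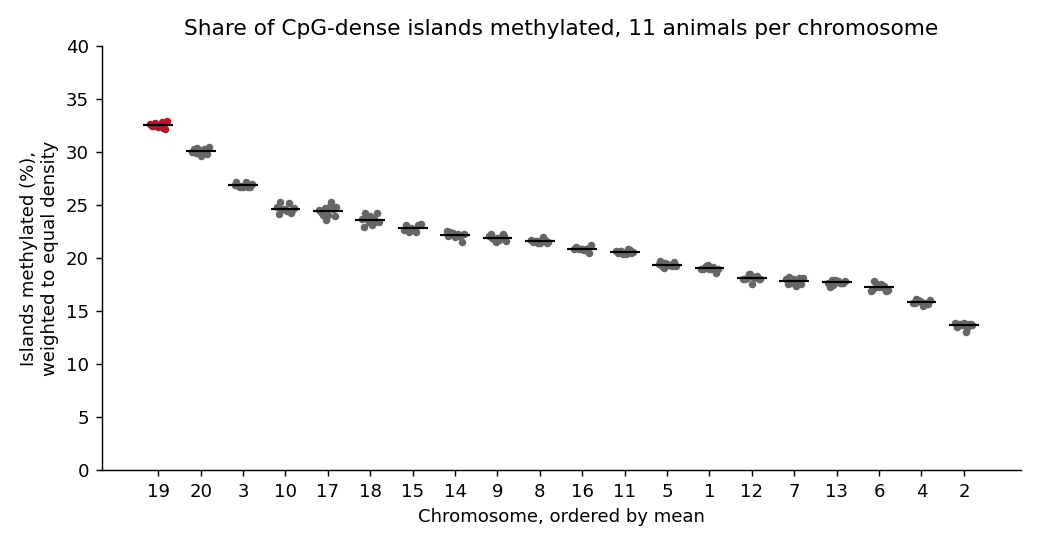
Share of islands methylated, in percent and weighted to equal density (vertical axis), for each of the 20 autosomes in order of the mean (horizontal axis), with 1 point per animal and a line at the mean of 11. Chromosome 19, in red, is first at 32.5%, with chromosome 20 next at 30.1% and chromosome 2 last at 13.7%.

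Methylated islands of chromosome 19 were smaller than unmethylated ones, with a median of 34 positions over 450 bp against 46 over 578 bp. The same held elsewhere, where the medians were 30 positions over 445 bp and 49 over 638 bp. Methylated islands had a median of 189.1 reads per position and the others 158.9. Islands lay closer together on chromosome 19, with a median gap of 9998 bp against 27426 bp. After a methylated island the next one along the chromosome was methylated in 45.6% of cases on chromosome 19 and 43.6% elsewhere, and after an unmethylated one in 26.5% and 14.96%.

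The islands at 80% or more in every animal that held most positions show how long such stretches can be. One from 55365031 to 55367812 on chromosome 19 had 267 positions over 2782 bp and a level of 93.8% in the lowest animal, 94.7% in the median and 95.9% in the highest. One from 573000 to 575575 with 196 positions had 82.9%, 85.9% and 88.8% in the same order, and one from 2071997 to 2074134 with 175 positions had 83.3%, 85.6% and 89.2%. An island from 56405096 to 56406708 was listed with 290 positions, but 145 remained after positions 1 bp apart, as the strands of a single CpG site would be, were merged. Its level ran from 84.1% through 89.6% to 93.1%. Of the 63630 such pairs in the tables, 6963 lay on chromosome 19, a larger share (10.9%) than its share of positions (6.16%). With the pairs merged, the island difference was 12.1 points and still present in every animal.

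By count of positions alone, the largest island lay from 1258640 to 1262147, with 324 positions and an intermediate level of 49.4% to 60.4% and a median of 55.2%. The next 3 all lay between 38000001 and 39000000 and were lightly methylated. The island from 38015342 to 38017733 ran from 18.04% through 20.2% to 22.4%, that from 38042130 to 38044465 from 15.4% through 18.8% to 19.6%, and that from 38495139 to 38496973 from 20.8% through 24.3% to 25.2%. The widest range between animals in the 4 was that of the island from 1258640. Each of the other 3 was listed with both strands and held 147 to 151 positions once merged. The islands from 55365031, 573000 and 2071997 held 267, 195 and 174 once merged. The place of the 3 among the largest thus rests on both strands being listed.

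Methylation was not even along the chromosome. Of 57 windows of 1 Mb with any listed position, 4 had fewer than 200 positions and 53 had at least 200 positions and are described here. Their mean levels ran from 20.6% to 58.0% with a median of 40.8%. The SD over animals within a window was small beside that, with a median of 0.379 points and a range of 0.205 to 1.91. Among these 53, the 5 windows with the highest level were all among the first 6 of the chromosome. Of the 4 left out, those from 27000001 and 42000001 had higher levels, 66.3% over 193 positions and 62.2% over 64. Those from 23000001 and 26000001 had 22.8% over 125 positions and 34.8% over 10. The fourth window, from 3000001 to 4000000, had 58.0% ± 0.377 (SD, n = 11), the first 57.4% ± 0.425, the sixth 55.4% ± 0.409, the fifth 54.1% ± 0.205 and the third 51.9% ± 0.346. The second window held the most positions, 10280, at 49.2% ± 0.379.

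The lowest window, from 28000001 to 29000000, had 20.6% ± 0.640 over 671 positions. It was followed by the window from 52000001 to 53000000 at 22.1% ± 0.257, in which 76.1% of 3013 positions were dense, and by those from 36000001, 33000001 and 31000001 at 29.03%, 30.03% and 30.7%. Among the islands of these 5 windows, 0 of 7, 4 of 35, 6 of 25, 2 of 20 and 0 of 4 were methylated. In the first window 69 of 120 were.

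The high levels at the start of the chromosome were not those its local density has elsewhere. Taking each position at the mean level of its density class on the other autosomes, the first window would have 35.1%, and it measured 22.3 points more. The first 9 windows all lay above that reference, by 3.42 to 22.3 points. Of the other 44 windows, 26 lay above it, with a median difference of 0.432 points. Over all windows, 66.0% on chromosome 19 and 28.2% of 2138 on the other autosomes lay above it. Windows toward the far end, from 55000001 and from 56000001, were 13.6 and 11.7 points above.

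**Figure D3:**
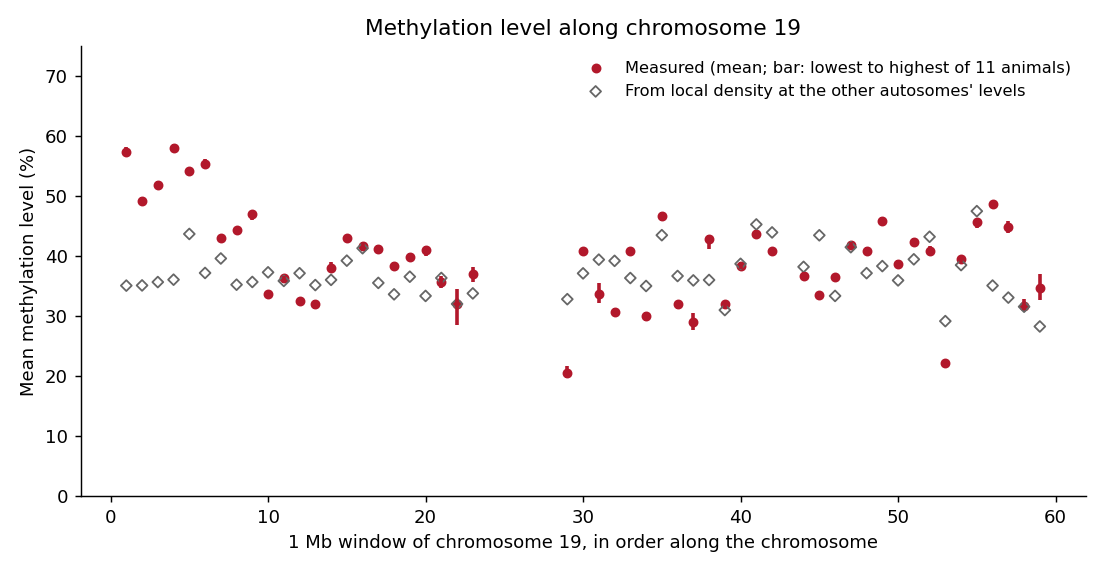
Mean methylation level in percent (vertical axis) of the 53 windows of 1 Mb with at least 200 positions, in order along chromosome 19 (horizontal axis). Red points are means with bars from the lowest to the highest of 11 animals, and open diamonds are the levels that each window's local density would give at the levels of the other autosomes. The first 9 windows lie above their diamonds by 3.42 to 22.3 points.

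The first 10 Mb carried most of the excess in level at equal density. Without them the difference in level from the other autosomes was 0.0462 ± 0.115 points (SD, n = 11; exact permutation p = 0.217), in place of 3.26, and the overall difference was -5.81 points in place of -2.09. The island difference was 5.84 ± 0.173 points in place of 11.6 and still present in 11 of 11 animals (exact permutation p = 0.000977). The stretch was left out on chromosome 19 alone, after its high windows had been seen, while the other autosomes kept all their positions. A fall was thus built in, and the exact permutation p of 0.217 does not show that the rest of the chromosome has no excess. In the first 10 Mb, 47.5% ± 0.395 of 654 islands were methylated, against 22.8% that islands of the same density have elsewhere. From 10 to 20 Mb the share was 28.8% against 20.6%, from 30 to 40 Mb 23.3% against 21.1%, from 40 to 50 Mb 28.9% against 22.6%, and beyond 50 Mb 26.0% against 19.7%. From 20 to 30 Mb, with 68 islands, it was 18.98% against 18.9%. With the outermost 2 Mb of both ends of every chromosome left out, the overall level difference was -1.097 points in place of -2.09, and the island difference was 13.3 points.

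The spacing of CpG sites was also examined, in dense positions split by their level at 50% and after the data had been seen. Pairs of dense positions at the same distance were counted, with strand pairs merged, and compared with the mean count at the 6 distances on either side. Among 34268 dense positions of chromosome 19 at 50% or more, of all distances from 20 to 300 bp, the highest ratio was at 84 bp, where 2441 pairs gave a ratio of 1.24. The second was at 168 bp with 1.18 and the third at 21 bp with 1.17, and 252 bp had 1.16. Both 168 and 252 are multiples of 84. Among the 76900 dense positions of chromosome 19 under 50%, the ratios at 84, 168 and 252 bp were 1.01, 1.02 and 1.01, and the highest was at 21 bp with 1.05.

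Methylated dense positions of the other autosomes had ratios of 1.14, 1.103 and 1.05 at 84, 168 and 252 bp, and chromosome 19 was first of the 20 at 84 bp, with chromosome 11 next at 1.23 and chromosome 20 at 1.22. Along chromosome 19 the ratio at 84 bp was 1.93 beyond 50 Mb (524 pairs) and 1.201 in the first 10 Mb (1056 pairs). It was 1.11 from 40 to 50 Mb and at most 1.03 from 10 to 40 Mb. Single islands beyond 50 Mb and in the first 10 Mb, given below, held many pairs at this distance. Distances that are multiples of 3 made up 35.8% of the pairs of methylated dense positions of chromosome 19 and 34.1% of the pairs under 50%, where an even spread would give 33.3%. On the other autosomes the shares were 35.5% and 34.04%, so this step was not particular to chromosome 19. These values describe sites that neighbour each other in the same sequence, and no test was made on them.

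**Figure D4:**
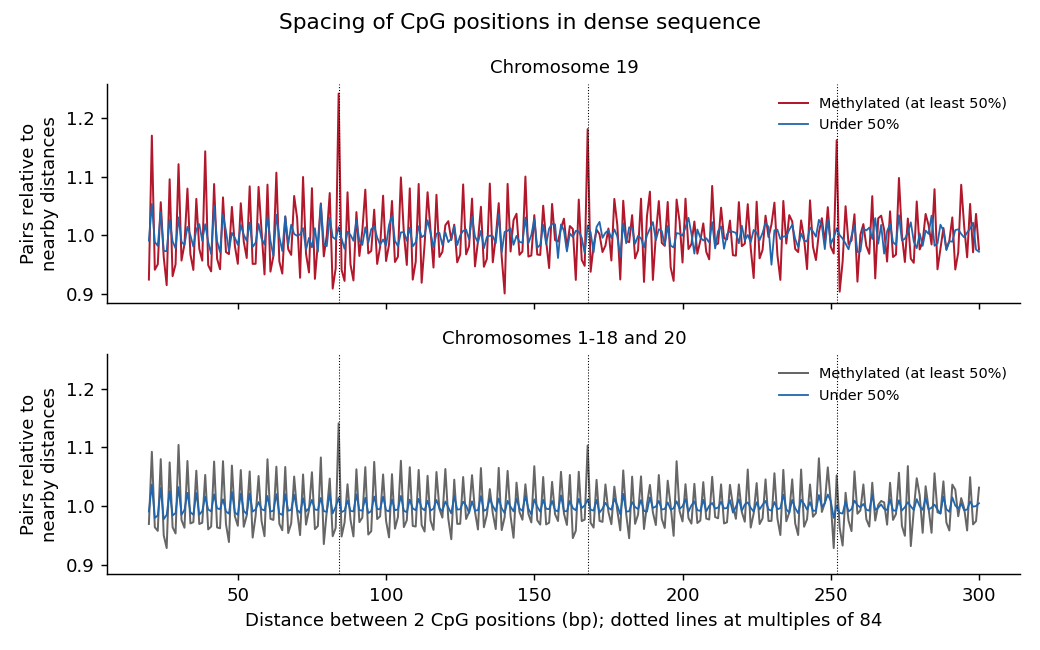
Number of pairs of dense CpG positions at each distance from 20 to 300 bp, relative to the mean of the 6 distances on either side (vertical axis), for positions methylated at 50% or more and for those under 50%, on chromosome 19 (upper panel) and on chromosomes 1 to 18 and 20 (lower panel). In methylated positions of chromosome 19 the line reaches 1.24 at 84 bp, 1.18 at 168 bp and 1.16 at 252 bp, the 3 dotted distances.

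Single islands carried many such pairs. The island from 89784 to 90969 on chromosome 19, with 83 positions, had 56 pairs at 84 bp against a mean of 5.25 at the nearby distances, and its level was 76.7% in the lowest animal, 81.0% in the median and 82.5% in the highest. The long methylated island from 55365031 had 50 against 24.1, and that from 56405096 had 49 against 10.9. An island from 57896121 to 57897667 had 47 against 12.5 at an intermediate level of 36.7% to 64.7%. Of 48 islands with at least 5 pairs more than nearby, 27 were methylated and 22 lay at 80% or more, against 32.8% and 22.6% of all islands of the chromosome. Islands with 84 bp pairs were picked by their spacing after the pattern had been seen. The distance of 84 bp was itself found among positions at 50% or more. Picking by it favours methylated islands, so these shares are no separate support.

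As background, C2H2 zinc fingers repeat in tandem with a linker of fixed length, so the DNA that encodes them repeats at a fixed step. In the RefSeq gene table of another macaque assembly, T2T-MMU8v2.0, 190 of 463 protein-coding genes with a zinc finger symbol (starting with ZNF, ZFP, ZSCAN, ZIM or ZIK) were on chromosome 19, or 41.0%, against 7.01% of all protein-coding genes. Chromosome 20 came next with 34. That table cannot place the genes on the coordinates used here, and whether the spaced islands lie in zinc finger genes was not tested.

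How much the animals differed from each other was compared between chromosome 19 and the rest, and the direction of the difference depended on which regions were kept. Regions were formed by joining positions at most 200 bp apart, with at least 5 positions and at most 1000 bp. From the lowest to the highest animal, the median range was 9.51 points over 7425 regions of chromosome 19 and 10.4 points over 133152 others. A range over 20 points was found in 14.2% and 16.7%, and one over 50 points in 15 regions (0.202%) and 280 regions (0.210%). Positions at which one animal lay under 20% and another over 80% made up 1.47% and 1.76%.

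Per animal, spread was measured as the mean distance of its regions from the median animal, weighted to equal level. It ran from 2.31 through 2.50 to 3.49 points on chromosome 19 and from 2.37 through 2.63 to 3.86 elsewhere, and animal 6 of cohort 14 was the highest in both. The difference was -0.106 ± 0.114 points (SD, n = 11) and below 0 in 10 of 11 animals (exact permutation p = 0.00684). It turned to 0.0183 points (exact permutation p = 0.527) when regions needed at least 10 positions, and was -0.0709 points without positions under 20% in 1 animal and over 80% in another (exact permutation p = 0.0381). Without the 4 libraries it was -0.0946 points (n = 7; exact permutation p = 0.0313). Taken as the SD over animals, it was -0.160 points. The p-values do not tell how unusual the chromosome is. With each other autosome set against the rest in the same way, the difference ran from -0.144 points (chromosome 14) to 0.145 points (chromosome 17). The -0.106 of chromosome 19 lay inside that range, toward its lower end. Regions of chromosome 19 had a median of 16 positions and others 11. Within level classes the sign differed: regions at 5% to 20% spread more on chromosome 19, by 0.171 points in 11 of 11 animals, and regions at 80% to 95% less, by 0.206 points in 11 of 11 (exact permutation p = 0.000977, adjusted over 5 classes 0.00244 for both). Regions under 5% also spread more on chromosome 19, by 0.0291 points in 9 of 11 animals (exact permutation p = 0.00391, adjusted 0.00651). At 20% to 80% the difference was -0.133 points and at 95% or more 0.0144 points, and neither passed (exact permutation p = 0.0996 and 0.775, adjusted 0.125 and 0.775).

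The 5 regions of at least 10 positions with the largest range show animals spread over most of the scale. The first, from 5006578 to 5006815 with 14 positions, was at 19.3% in animal 6 of cohort 14 and 48.6% in animal 5, with a median of 67.9% and 88.0% in animal 8. The second, from 49337366 to 49337453, had 25.1% and 26.4% in animals 5 and 8 of cohort 14, a median of 60.4%, and 76.9% in animal 4. From 909741 to 909935 the levels ran from 21.6% (animal 6 of cohort 14) through 50.6% to 72.8%, from 15020764 to 15020990 from 20.02% (animal 2) through 44.3% to 71.0%, and from 7848653 to 7848769 from 34.5% (animal 1) through 59.2% to 84.6% (animal 6). In all 5 both animals of cohort 10 lay inside the range of cohort 14. Of the 1052 regions of chromosome 19 with a range over 20 points, animal 6 of cohort 14 was the highest in 157 and the lowest in 195, more than any other animal in either count. Animals 3, 7 and 8 came next for the highest value, and animals 8 and 3 for the lowest. Animals 3, 6, 7 and 8 are those of the 4 libraries with more positions at the lowest unmethylated count. The part of the libraries in these counts was not tested.

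The relation to the later intake value was examined for the chromosome as a whole and region by region. The mean level of chromosome 19 rose with intake. It was 41.8% in animal 4 of cohort 14, which has the lowest intake value, 42.4% in animal 9, which has the highest, and 42.5% in animal 6, with a value of 3.61. The slope was 0.236 ± 0.0448 points (SE, n = 11) for each unit of intake, with a Pearson r of 0.870 at a permutation p of 0.00039, or 0.00117 adjusted over 3 relations (Spearman rho 0.809, permutation p = 0.00411, adjusted 0.0123).

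The other autosomes had an r of 0.543 (permutation p = 0.0846, or 0.127 adjusted) and a rho of 0.464 (permutation p = 0.154, or 0.232 adjusted), with a slope of 0.175 ± 0.0901 points per unit. These 2 relations cannot be read as different: the difference between chromosome 19 and the others within each animal had an r of 0.256 with intake (permutation p = 0.45, also adjusted), a rho of 0.2 (permutation p = 0.558, also adjusted) and a slope of 0.0615 ± 0.0775 points per unit. Among single autosomes, r for chromosome 19 was the highest, the others running from 0.288 (chromosome 5) to 0.673 (chromosome 15). Levels of the 2 sets shared the libraries and had an r of 0.684 with each other over the 11 animals.

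Leaving out animals 4 and 9 of cohort 14, whose intake lies farthest from the median, r for chromosome 19 was 0.811 (exact permutation p = 0.00618) and rho 0.667 (exact permutation p = 0.0589). Within cohort 14 alone, r was 0.859 (exact permutation p = 0.00376) and rho 0.817 (exact permutation p = 0.0108). In cohort 10 a correlation cannot be formed from 2 animals. With animals 3, 6, 7 and 8 of cohort 14 left out, r over 7 animals was 0.954 for chromosome 19 (exact permutation p = 0.00119) and 0.903 for the others (exact permutation p = 0.00734), and the r of their difference changed sign to -0.150 (exact permutation p = 0.74). The rho values were 0.857, 0.857 and -0.107 (exact permutation p = 0.0238, 0.0238 and 0.84). When reads were summed over the chromosome before the level was taken, so that deeply read positions weighed more, r for chromosome 19 fell to 0.333 (permutation p = 0.315).

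**Figure D5:**
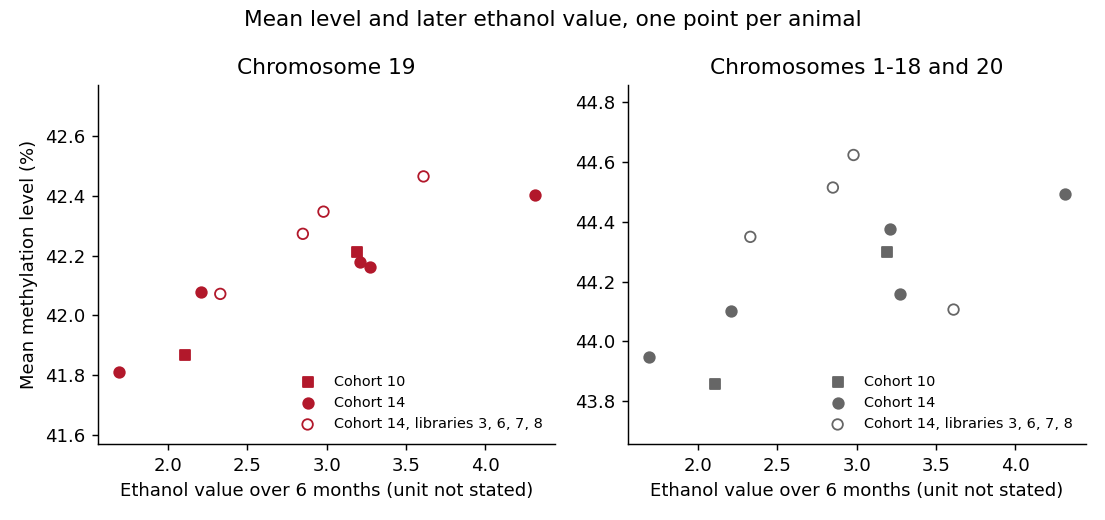
Mean methylation level in percent (vertical axis) against the ethanol value over 6 months (horizontal axis, unit not stated), 1 point per animal, for chromosome 19 (left) and chromosomes 1 to 18 and 20 (right), both with a vertical axis of the same span that does not start at 0. Squares are cohort 10, circles cohort 14, and open circles animals 3, 6, 7 and 8 of cohort 14, of which animal 6, with an intake value of 3.61, is the highest of all in the left panel at 42.5% and lies at 44.1% in the right one.

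Properties of the libraries were set beside intake in the same way. Reads per position had an r of 0.206 with intake (permutation p = 0.542), the share of positions at the lowest unmethylated count 0.103 (permutation p = 0.76), age 0.222 (permutation p = 0.512) and the level at almost unmethylated positions of the other autosomes 0.496 (permutation p = 0.123). The rho values were 0.245, 0.0909, 0.291 and 0.518 (permutation p = 0.466, 0.799, 0.389 and 0.109), and after adjustment over these 4 relations the smallest p was 0.492 for r and 0.434 for rho. Over the 7 animals without the 4 libraries, the level at almost unmethylated positions rose with intake, with an r of 0.784 (exact permutation p = 0.0339) and a rho of 0.929 (exact permutation p = 0.00675), and its part in the r of 0.954 for chromosome 19 over the same 7 was not tested. This measure rises when bisulfite conversion is incomplete, and it ran from 0.493% to 0.827%. With each library's level corrected for it, r for chromosome 19 was 0.719 (permutation p = 0.013).

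By local density, the relation on chromosome 19 passed by r in the 3 denser classes and not in both sparser ones, and the difference between classes was not tested. With 20 to 39 positions within 250 bp, r was 0.803 (permutation p = 0.00296, adjusted over 10 relations 0.0296) and rho reached 0.882 (permutation p = 0.00062, or 0.0062 adjusted). With 40 or more, r was 0.730 (permutation p = 0.0111, adjusted 0.0369) while rho was 0.6 (permutation p = 0.0566, or 0.189 adjusted). With 10 to 19, r was 0.749 (permutation p = 0.0079, adjusted 0.0369) while rho was 0.618 (permutation p = 0.0481, or 0.189 adjusted). With 5 to 9 and with 1 to 4, r was 0.195 and 0.148 (permutation p = 0.564 and 0.667) and rho 0.136 and 0.282 (permutation p = 0.696 and 0.402). Leaving out animals 4 and 9 of cohort 14, r was 0.723 with 20 to 39 positions (exact permutation p = 0.0194), 0.570 with 40 or more (exact permutation p = 0.0825) and 0.619 with 10 to 19 (exact permutation p = 0.0784), so that neither of the last 2 relations passed at n = 9. Within cohort 14 alone, r was 0.789, 0.705 and 0.709 in the same order (exact permutation p = 0.0117, 0.0351 and 0.0327), and over the 7 animals without the 4 libraries 0.963, 0.820 and 0.886 (exact permutation p = 0.000397, 0.0276 and 0.00813). The differences from the other autosomes within the same class had an r from 0.0106 to 0.310 and a rho from -0.136 to 0.473 (permutation p from 0.147 to 0.976 over both), and none of the 5 passed. Of the 53 windows, 49 (92.5%) had a slope above 0, against 81.2% of the windows elsewhere.

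On chromosome 19, no region was called for intake. Of 119673 regions tested over all autosomes with a pooled level from 5% to 95%, 0 (0%) had an adjusted p under 0.05 in a quasi-binomial regression with limma's shrinkage of the dispersion, and 2.93% had an unadjusted p under 0.05, 1.83% with a slope above 0 and 1.1% with a slope below 0. Of the 6077 on chromosome 19, 0 passed and 171 (2.81%) had an unadjusted p under 0.05, 112 above 0 and 59 below, which is near the share over all regions. Limma on logit levels called 0 as well, with 196 at an unadjusted p under 0.05. Without animal 9 of cohort 14 the quasi-binomial fit gave 264 (4.34%) on chromosome 19 at an unadjusted p under 0.05 and 5.37% over all regions, and 0 passed after adjustment. By least squares on mean levels, with cohort as covariate, slopes above 0 made up 55.6% on chromosome 19 and 54.3% elsewhere. The median slope was 0.158 and 0.130 points per unit, with a median standard error of 1.51 and 1.58. Slopes of the regions named below came from the same least squares, and their p-values from the quasi-binomial fit.

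The region with the smallest p of all tested regions lay on chromosome 19, from 55104721 to 55105139 with 29 positions. Its level ran from 10.0% in animal 9 of cohort 14, with the highest intake value, through 17.5% to 34.5% in animal 1 of cohort 10. By least squares on its levels the slope was -7.72 ± 1.18 points per unit (SE, n = 11). The quasi-binomial fit, a separate model with limma's shrinkage, gave an adjusted p of 0.169. The 6 animals with intake under 3 averaged 23.4% ± 7.10 (SD) and the 5 above it 14.1% ± 3.68 (SD), and the classes overlapped. Without single animals its adjusted p or that of another region of the chromosome, whichever was smaller, ran from 0.141 to 1. The other 9 regions named here for intake had an adjusted p that rounds to 1.

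Of the regions whose slope was above 0 and kept its sign without each animal, the one with the smallest p lay from 30799177 to 30800134, with 92 positions. It was lightly methylated, from 6.32% in animal 4 of cohort 14 through 7.23% to 8.93% in animal 9, with a slope of 0.797 ± 0.253 points per unit. A region of 14 positions from 47457379 to 47457614 followed, at 13.6% in animal 4, a median of 20.7% and 27.5% in animal 9. Its classes, 17.6% ± 3.05 (SD, n = 6) and 25.5% ± 2.47 (SD, n = 5), did not overlap, as was so in 0.423% of all tested regions and in 31 (0.510%) of those of chromosome 19. The other 3 named for a positive slope lay from 1691058 to 1691772 (26.3% to 47.2%), from 49641368 to 49641941 (77.0% to 90.8%) and from 52953883 to 52954857 (4.33% to 6.31%). In 4 of these 5 the highest animal was animal 9 of cohort 14, whose intake value is the highest.

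The other 4 named for a negative slope were more methylated. From 34050628 to 34050871, 7 positions ran from 73.9% in animal 9 of cohort 14 through 81.5% to 89.1%, and from 624175 to 624901, 47 positions ran from 52.9% in animal 5 of cohort 14 through 60.2% to 63.8%. From 17101584 to 17101899, 10 positions had 74.1% in animal 9, a median of 85.3% and 96.5% in animal 3. From 35527660 to 35527762, 5 positions averaged 95.5% ± 0.749 (SD) in the 6 animals with intake under 3 and 88.8% ± 4.55 (SD) in the other 5, with no overlap between the classes. These 10 regions were picked for small p-values, and no other animals were at hand to check them. Total counts summed over the positions of each came to at least 495 in every animal. A read over several positions counts at each of them, so this is not a number of reads.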

How the data were processed

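Capture bisulfite libraries of 11 macaques were prepared with a SureSelect XT Human Methyl-Seq capture, per the labels' protocols. The submitters' processing notes name FastQC and Bismark. Their versions, the build and any filters were not given in the sources used here. What the authors deposited were whole-number methylated and total read counts per CpG position, not normalized. Each of both tables had 5 further columns that match no labelled library and were not used. The lowest methylated and unmethylated counts were both 1 and the lowest total 12, as if 1 had been added to both. Counts were used as deposited, with removal as an alternative. Reads are not independent molecules, so depth overstates precision.

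Levels were averaged over positions per animal. Chromosome 19 and the other autosomes were compared by swapping labels within animals, over all 2048 arrangements, two-sided. This p asks whether the differences within animals centre on 0, over the same positions in every animal. Correlations used 100000 resamples, or full enumeration below 10 animals. Regions were fitted on intake with cohort as covariate, quasi-binomial with dispersion shrunk by limma 3.58.1, Benjamini-Hochberg over all regions at 0.05, and checked against R's glm and simulated data. Windows, islands and regions were named by size, level, range or p by a fixed rule. Windows needed 200 positions. Slopes of regions in points per unit, with their SE, came from least squares on mean levels with the same covariate. Named intake regions kept the sign of the slope in cohort 14 alone and without each animal. The chromosome, classes and rules were chosen with earlier results of these data known. The spacing of positions, the stretches of 10 Mb, the density classes against intake and the comparisons with chromosomes 16, 20 and 10 were added after seeing the data. Planned gene lists and promoters were not used, since no gene coordinates of a matching build were at hand. Software was R 4.3.3 and Python 3.11.15 with pandas 2.3.3, scipy 1.17.1 and numpy 2.4.6.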

Additional observations from a re-analysis of the deposited data

Results flagged for a closer look

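Values of the 9 cohort 14 animals were examined in 44 sets, and 4 sets had 1 animal far from the rest. Chance alone marks about 1 in 20 sets, a rate that may differ for regions picked by their range or p. The level difference between chromosome 19 and the other autosomes was -1.64 points in cohort 14's animal 6, -2.28 to -1.999 in the rest of that cohort, and -1.99 and -2.08 in cohort 10. The island from 50423996 to 50426460, with 192 positions, had 89.3% in the same animal and 83.0% to 85.2% in the others of cohort 14. The island from 38042130 to 38044465 had 15.4% in animal 6, against 17.9% to 19.6%. The island from 38495139 to 38496973 had 20.8% in animal 5 of cohort 14, against 23.5% to 25.2%. In cohort 10 these 3 islands had 84.7% and 83.3%, 17.0% and 19.3%, and 23.8% and 23.0%. Cohorts 10 and 14 did not pass a test of the difference for the effects of chromosome 19 on level, level at equal density, islands or spread (exact permutation p = 0.655, 0.509, 0.836 and 0.527 over 55 arrangements).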

How the results depend on the processing

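The difference in mean level kept its direction and its side of the threshold under 20 of 20 alternatives, the difference in islands under 22 of 22, and 0 regions of chromosome 19 passed for intake under 17 of 17, of which cohort 14 alone and both fits without 1 animal of cohort 10 are in effect 1 fit, since the cohort term takes up the lone animal. The ratio of position density was 2.91 with positions 1 bp apart merged and 2.07 per occupied bin of 10 kb. The level difference at equal density was 0.0462 points without the first 10 Mb of chromosome 19, an alternative that trims chromosome 19 alone and was chosen after seeing the data, and passed under the other 19. The difference in spread reversed to 0.0183 points with regions of at least 10 positions. The correlation of the level of chromosome 19 with intake was 0.333 from summed reads and 0.815 to 0.896 without 1 animal. That of the difference with intake reversed to -0.125 from summed reads and -0.150 without the 4 libraries, was -0.00373 to 0.343 without 1 animal, and passed in none. The alternatives without the 4 libraries, without the outermost 2 Mb and with the correction for almost unmethylated positions were also chosen after seeing the data. For all changes named here, the cause was not tested. At least 50 reads in every animal were found at 65.9% of the positions of chromosome 19. Chromosome 19 and the other autosomes were paired within each animal. Between the cohorts no pairing was possible, because they hold different animals, and a shared number pairs no animal of cohort 10 with one of cohort 14.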
